A study of Mus musculus with 83 samples.

Results

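The replication-dependent histone genes were followed in the colon of aging mice. They were taken as the genes whose symbol starts with Hist1h, Hist2h, Hist3h or Hist4h, and 68 of the 37764 genes in the count table met that rule. By class they comprised 6 genes of the linker histone H1, 19 of H2A, 19 of H2B, 11 of H3 and 13 of H4, and 65 of the 68 were annotated as protein-coding. Hist1h2aa and Hist2h3c1 also match the rule by name and were not analysed here. RNA was sequenced from the proximal colon of 83 male C57BL/6J/Ukj mice, and no treatment is named for any group. The study states that its samples came from a larger project on multiple variables. The ages were 3 months (n = 16), 9 months (n = 16), 15 months (n = 16), 24 months (n = 17) and 28 months (n = 18), and each mouse gave 1 library. Libraries were poly(A)-selected and made in 3 preparation batches, each with 4 to 7 mice of every age. Libraries held 23026370 to 75838290 counted read pairs (median 35495123), of which the histone genes took 0.0230 to 0.0470%.

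Histones package DNA into nucleosomes: H2A, H2B, H3 and H4 form the core around which DNA is wrapped, and H1 binds the linker DNA between cores. Most histone protein is made during S-phase from clustered genes without introns, whose mRNAs normally end in a conserved stem-loop instead of a poly(A) tail. The stem-loop binding protein Slbp holds this end during processing, export and translation. Some of these genes also have a downstream poly(A) signal and give a longer, polyadenylated transcript, known from differentiated cells. A poly(A)-selected library therefore captures the second kind of transcript and little of the first, and the levels given here are those of the captured transcripts. In bulk tissue, fewer cells that express a gene and less of its RNA per cell cannot be told apart.

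The stem-loop was searched for in the 3′ UTR of the annotated transcripts as 2 arms of 6 bases around a loop of 4 bases. The arms had to pair at every base (G with T allowed), the first had to start with GG and end in CC, CT or TT, and the loop needed T at its first and its penultimate base. It was present in 45 of the 68 genes, 21 to 58 bases after the stop codon (median 31). Among 21080 other genes with an annotated 3′ UTR, 50 (0.237%) held such a motif. The genes below are shown because they carry age differences, mark some of the forms of the loop or, for Hist1h1c, have the highest level. Other forms, among them one found in 6 genes, are not shown. Capitals mark the pairing arms and lower case the loop, 5′ to 3′ on the GENCODE GRCm38 transcripts.
Hist1h1c, Hist1h1e, Hist1h1d, Hist1h2be and Hist2h3c2: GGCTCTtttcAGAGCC
Hist1h4h and Hist1h4c: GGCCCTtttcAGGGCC
Hist1h4i and Hist2h4: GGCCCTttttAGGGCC
Hist1h4j: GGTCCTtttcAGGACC
Hist2h2ac: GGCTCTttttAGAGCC
The first sequence was shared by 25 genes of the H1, H2A, H2B and H3 classes, and every H4 gene with a stem-loop had another arm sequence. The loop of Hist1h1c lies at chr13:23739512-23739527 on the plus strand, that of Hist1h1e at chr13:23621782-23621797 on the minus strand and that of Hist2h4 at chr3:96262939-96262954 on the minus strand.

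What lies beyond the loop differed between the genes. In 22 genes the annotated transcript runs on for at least 100 bases past the stem-loop, for example by 840 bases in Hist1h1c, 1153 bases in Hist1h1e and 4884 bases in Hist1h1d. In 23 genes the annotated transcript ends fewer than 100 bases past the stem-loop, for example 46 bases past it in Hist1h4h. These are described below as ending at the stem-loop. A further 4 genes, all of the H2B class, have a long 3′ end without a stem-loop. Hist1h2bc reaches it by splicing to a distal exon, and Hist2h2be has an unspliced 3′ UTR of 2192 bases. The other 19 genes have no 3′ UTR in the annotation, a short one without a stem-loop, or are pseudogenes.

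TPM, which divides each count by the exon length of the gene so that genes can be compared with each other, was 349.1 ± 67.14 (SD, n = 83) for Hist1h1c, which encodes linker histone H1.2, and 232.0 ± 26.97 for Hist1h2bc. Hist2h2be followed at a TPM of 19.11 ± 1.89 and Hist1h4i at 13.87 ± 2.65. Every other gene stayed under a mean TPM of 6. Hist3h2a, at 5.90 ± 1.05, was the highest H2A gene, and Hist2h3c2, at 2.56 ± 0.955, the highest H3 gene. Hist1h1c alone held 57.57% of all read pairs counted on the 68 genes, and Hist1h1c, Hist1h2bc and Hist2h2be together 91.07%. The 26 genes with a long 3′ end of either kind held 98.64% of the read pairs and had a median TPM of 1.79, from 0.0626 to 349.1. The other 42 had a median of 0.363. Of the 26, 20 passed the filter on low counts used for testing, as did 6 of the 42. The highest gene whose transcript ends at the stem-loop was Hist1h4h, with a mean TPM of 5.87 ± 1.63.

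**Figure D1:**
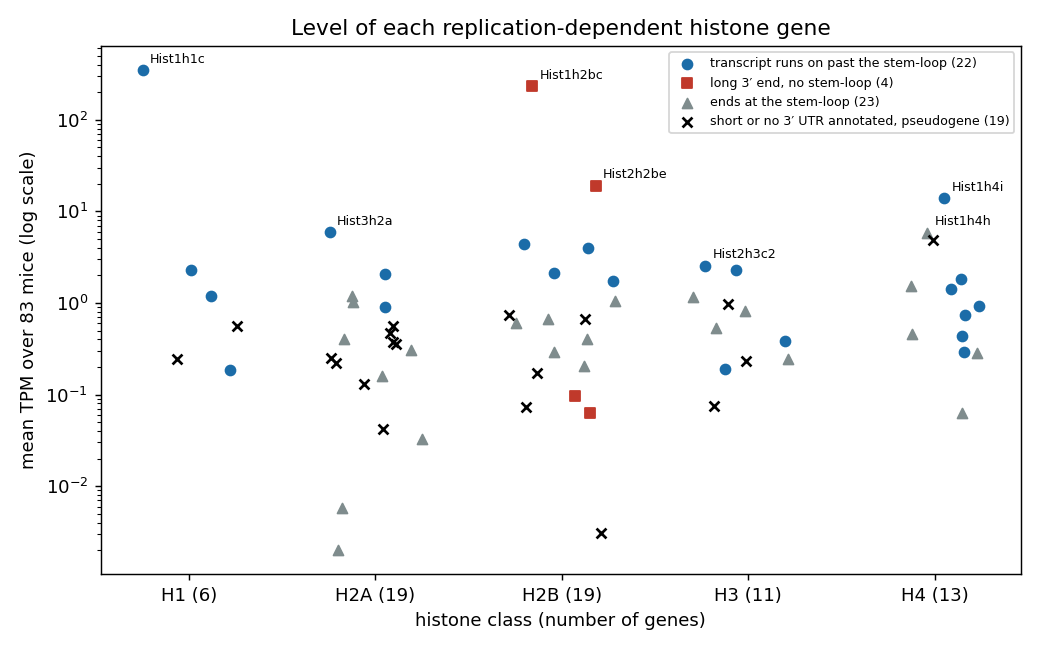
Mean TPM over 83 mice (log scale) of each of the 68 genes, grouped by histone class; marker shape and colour give the annotated 3′ end. Hist1h1c (349.1) and Hist1h2bc (232.0) stand above all others, and genes that end at the stem-loop stay at or under 5.87.

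At the other end, 31 genes had no mouse with 10 read pairs, and 10 genes had fewer than 83 read pairs in all 83 mice together. Hist1h2ba, the testis form of H2B, and Hist2h2aa1 each had 1 read pair in the whole table, and Hist1h1t, the testis form of H1, had 167. The 42 genes that did not pass the filter held 0.770% of the read pairs, with totals from 1 to 511 per gene. Near-identical copies limit these values, since only uniquely mapped reads were counted. In 25 genes more than 50% of the 100-base windows of the transcript recur in another gene, and 5 of the 26 tested genes are among them (Hist1h2ad, Hist1h4k, Hist1h4n, Hist2h2aa2 and Hist2h3c2), so counts of these may be incomplete or shared out unevenly.

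Many H2A and H2B genes sit head to head, with one shared stretch of DNA between their starts. There were 13 such pairs, with 172 to 301 bases between the annotated starts, and the H2B gene had the higher mean TPM in 8 and the H2A gene in 5. The 2 widest differences were in pairs whose H2B gene has a long 3′ end without a stem-loop, while the other 2 pairs of that kind had low levels in both genes. In the first pair Hist1h2ac had a mean TPM of 2.08 and Hist1h2bc one of 232.0, 111.3 times as high. In the second Hist2h2ac had 0.161 and Hist2h2be 19.11, 118.9 times as high. The promoter window of Hist1h2ac (RefSeq, GRCm38.p6, chr13:23683910-23684209, minus strand) is shown because it reaches from Hist1h2ac to the start of Hist1h2bc, 250 bases away; capitals mark, on either strand, matches to TATAA (the core of the TATA box), to CCAAT (the box of that name) and to the octamer ATTTGCAT known from H2B promoters.
Hist1h2ac: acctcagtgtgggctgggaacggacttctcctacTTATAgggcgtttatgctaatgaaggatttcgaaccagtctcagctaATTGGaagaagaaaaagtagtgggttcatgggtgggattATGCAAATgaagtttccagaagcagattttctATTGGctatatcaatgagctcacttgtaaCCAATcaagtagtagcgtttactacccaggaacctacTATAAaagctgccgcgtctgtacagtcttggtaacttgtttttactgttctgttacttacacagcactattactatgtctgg
The window held a TATAA at each end, near the start of either gene, with 3 CCAAT matches and 1 ATTTGCAT match between them. RefSeq gave a promoter window, 250 bases before to 50 bases after the start, for 59 of the 68 genes. TATAA was found on either strand in 48 of the 59 (81.36%), against 27.99% of 27025 genes with a window. CCAAT was found in every H1, H2A, H2B and H3 window and in 3 of 12 H4 windows, against 41.06% of all genes. The octamer was found in 7 of 16 H2B windows and 6 of 16 H2A windows, in none of the H1, H3 and H4 windows, and in 1.97% of all genes. Since head-to-head genes share these bases, the H2A and H2B counts are not separate. No match in the window shown overlaps another, and none of the 3 motifs contains another. A match is no evidence of a bound factor.

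The age comparisons ask when in life the levels of these genes differ, and whether the course is a straight line. The edgeR quasi-likelihood test was fitted to all 83 mice with age and preparation batch, over the 18325 genes that passed the filter, and adjusted p below 0.1 (Benjamini-Hochberg over all 18325) was the threshold. Of the 26 histone genes tested, 3 were H1, 5 H2A, 6 H2B, 3 H3 and 9 H4 genes. Values per mouse are CPM, read pairs relative to the library size after TMM normalization, which compare mice but not genes.

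Between 28 and 3 months 16 of the 26 genes were lower and none was higher, where 25.9% of all genes tested were lower, 23.5% higher and 49.4% either. The log2 fold change was below 0 in 25 of the 26, with a median of -0.35 against -0.01 over all genes. By class, 2 of 3 H1 genes, 2 of 5 H2A genes, 4 of 6 H2B genes, 2 of 3 H3 genes and 6 of 9 H4 genes were called. The 10 genes not called at this threshold ranged from Hist1h4n at -0.41 ± 0.26 to Hist1h3g at 0.22 ± 0.26, the tested gene above 0.

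Among the linker histones the 2 low genes differed most and the abundant one did not pass the test. For Hist1h1e (H1.4) CPM was 0.601 to 4.26 at 3 months (median 1.47), 0.734 to 3.45 at 9 months (1.53), 0.840 to 5.60 at 15 months (1.63), 0.714 to 2.75 at 24 months (1.24) and 0.254 to 1.23 at 28 months (0.729). All 18 mice of 28 months lay below the 3-month median, although the 2 ages overlapped. The log2 fold change between these ages was -1.27 ± 0.23 (SE; edgeR adjusted p = 6.62e-06). For Hist1h1d (H1.3) the medians were 2.52, 2.85, 3.48, 2.66 and 1.60 CPM in order of age, with 1.23 to 7.87 at 3 months and 0.970 to 3.00 at 28 months. It fell by 1.09 ± 0.21 on the log2 scale (edgeR adjusted p = 1.08e-05). The 3-month mice were spread unevenly, with 9 at 1.23 to 2.60 CPM and 7 at 4.38 to 7.87, and each batch had mice on both sides of that gap. The 7 high mice carry the replicate numbers 5, 10, 11, 12, 13, 15 and 16, and what set them apart was not tested. The 9 low mice lay within the range of the 28-month mice. The 28-month median was 0.635 times the 3-month median, against a fitted fold of 0.47. For Hist1h1c the medians were 162.2, 184.4, 179.6, 174.2 and 161.5 CPM, and the log2 fold change of -0.18 ± 0.09 did not pass the threshold (edgeR adjusted p = 0.107).

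**Figure D2:**
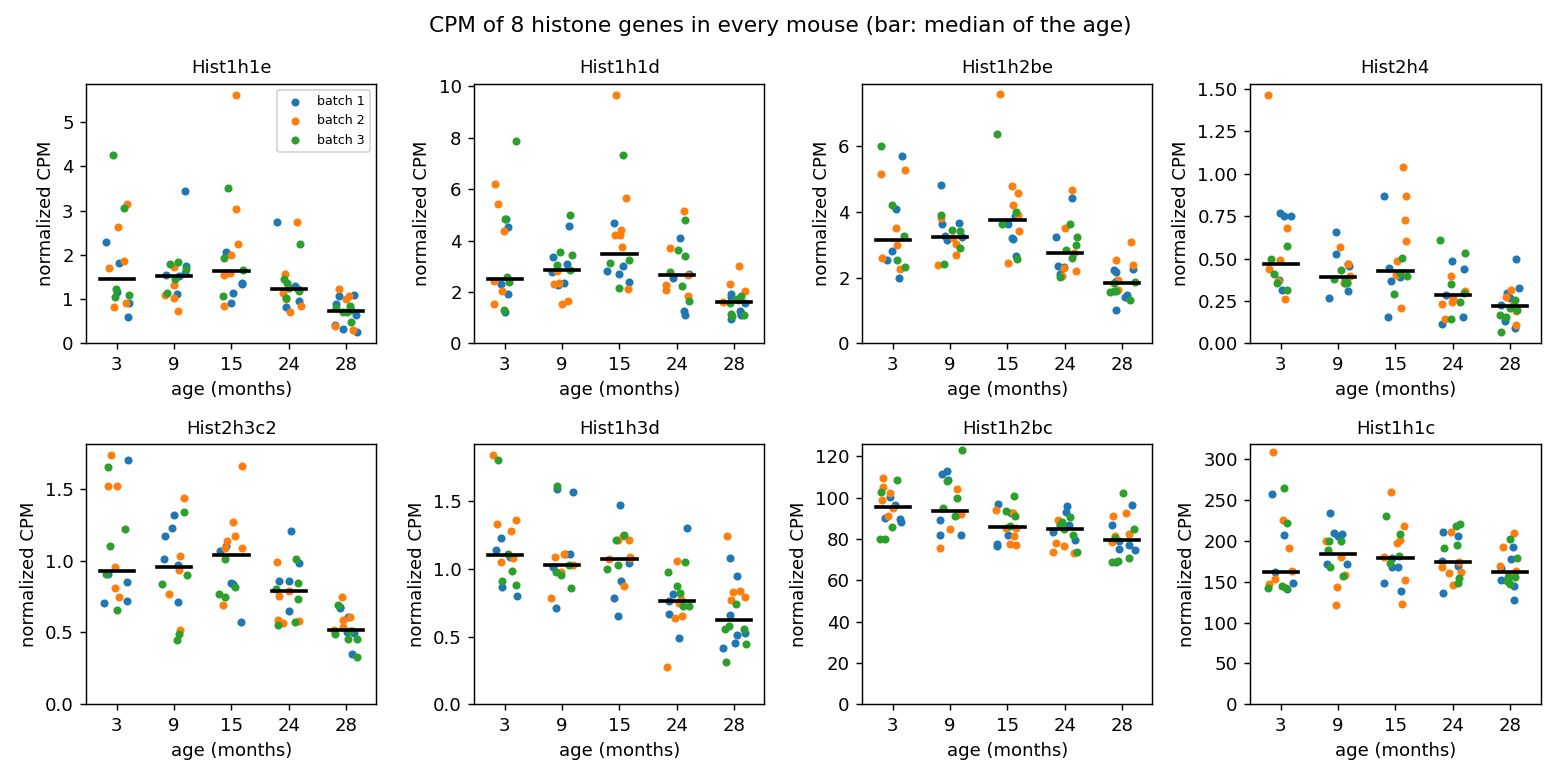
Normalized CPM (linear axes from 0) of 8 histone genes in each mouse by age in months; each point is a mouse, colours are the 3 preparation batches and bars are medians. In Hist1h1e the median at 28 months (0.729) is the lowest of the 5 ages, with all 18 mice under the 3-month median of 1.47, while the Hist1h1c medians stay between 161.5 and 184.4.

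The core histone genes that were called were all lower at 28 months. The largest log2 fold change belonged to the H4 gene Hist2h4, whose CPM was 0.263 to 1.46 at 3 months (median 0.468) and 0.0694 to 0.499 at 28 months (median 0.218), with 12 of 18 old mice below every young one. The change was -1.34 ± 0.22 (edgeR adjusted p = 5.12e-07). Hist2h3c2, which encodes H3, ranged from 0.657 to 1.74 CPM at 3 months (median 0.930) and from 0.329 to 0.746 at 28 months (median 0.515). In it 14 of 18 old mice lay below every young mouse, and the log2 fold change was -1.02 ± 0.14 (edgeR adjusted p = 1.52e-08). The H2B gene Hist1h2be ranged from 1.99 to 6.01 CPM at 3 months (median 3.14) and from 1.03 to 3.09 at 28 months (median 1.85), a log2 fold change of -0.92 ± 0.14 (edgeR adjusted p = 1.28e-07). Hist1h3d, another H3 gene, had medians of 1.10, 1.03, 1.07, 0.765 and 0.620 CPM over the 5 ages and a log2 fold change of -0.79 ± 0.14. In the H4 gene Hist1h4k CPM was 0.191 to 0.949 at 3 months (median 0.632) and 0.0416 to 0.602 at 28 months (median 0.362), a change of -0.86 ± 0.16. Another H4 gene, Hist1h4j, went from a median of 0.510 CPM to 0.299 (-0.76 ± 0.16), and the H2A gene Hist1h2ad from 0.188 to 0.113 (-0.70 ± 0.24). In all of these the ages overlapped.

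Other core genes were called with smaller changes. Hist1h2bc ranged from 79.97 to 109.6 CPM at 3 months (median 95.57) and from 68.67 to 102.3 at 28 months (median 79.74), a log2 fold change of -0.23 ± 0.05 (edgeR adjusted p = 0.000222). Hist2h2be went from a median of 17.16 CPM to 14.61, a change of -0.22 ± 0.04, and 14 of 18 old mice were below every young one. Its biological coefficient of variation, the spread between mice beyond counting noise, was 0.0763, against 0.126 for the median gene and 0.432 for Hist1h1e. Hist3h2a changed by -0.36 ± 0.08, Hist3h2ba by -0.43 ± 0.14, Hist1h4c by -0.41 ± 0.20, Hist1h4h by -0.30 ± 0.12 and Hist1h4i by -0.22 ± 0.09. Hist1h2bg, the 8th highest of the 68 by TPM, did not pass (-0.14 ± 0.12). Nor did Hist1h2ac (-0.13 ± 0.12), the head-to-head partner of Hist1h2bc.

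**Figure D3:**
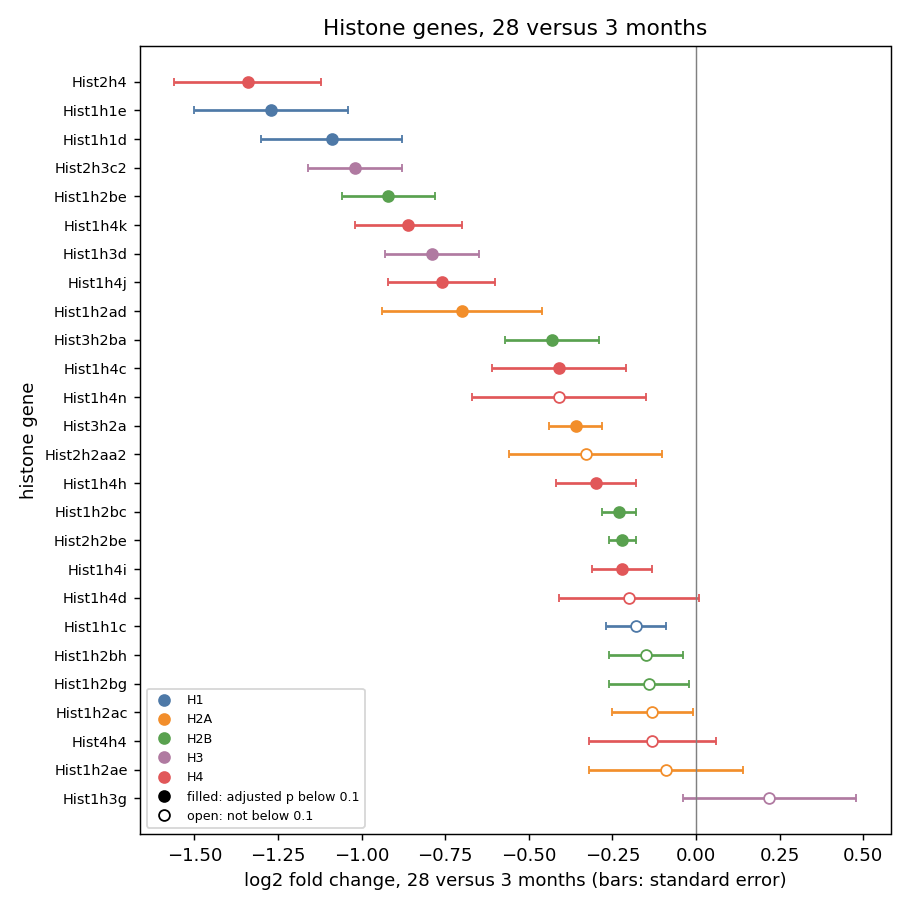
Log2 fold change between 28 and 3 months of the 26 tested histone genes, with standard errors; colours are the histone classes and filled points passed adjusted p below 0.1. The 16 filled points lie below 0, from -1.34 (Hist2h4) to -0.22, and only Hist1h3g (0.22, open) lies above.

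Summed over all genes of a class, the median CPM at 28 months was 0.640 times that at 3 months for H3 (1.95 against 3.05), 0.770 times for H4 (5.75 against 7.46), 0.838 times for H2B (98.44 against 117.4), 0.878 times for H2A (6.07 against 6.92) and 0.988 times for H1 (164.3 against 166.3). These sums are descriptions. The H1 and H2B sums mostly follow Hist1h1c (mean 179.6 CPM) and Hist1h2bc (88.58 CPM, with Hist2h2be at 16.51), and not the number of genes that differ. Within batches the ratio was 0.636 to 0.712 for H3, 0.775 to 0.785 for H4, 0.799 to 0.876 for H2B, 0.680 to 0.966 for H2A and 0.946 to 1.062 for H1, so that the H1 sum had no constant direction.

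The calls fell in the steps to 24 and 28 months. No histone gene was called between 9 and 3 months, where 8.69% of all genes were (5.05% lower and 3.64% higher), with 4 at an unadjusted p below 0.05 and none called by DESeq2. None was called between 15 and 9 months, where 0.431% of all genes were (0.18% lower and 0.251% higher), with 2 at an unadjusted p below 0.05 and none called by DESeq2. Between 24 and 15 months 5 of 26 were lower and none higher, where 7.24% of all genes were lower, 6.28% higher and 13.5% either. They were Hist2h4 (-0.69 ± 0.21), Hist1h2ad (-0.60 ± 0.22), Hist1h1d (-0.53 ± 0.20), Hist1h2be (-0.45 ± 0.14) and Hist1h3d (-0.44 ± 0.14). With the T cell score as a covariate 3 of 26 were called in that step, all lower, where 5.2% of all genes were lower and 9.98% either.

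Between 28 and 24 months 7 of 26 were lower and none higher, where 6.01% of all genes were lower, 5.66% higher and 11.7% either. Hist1h1e changed by -0.90 ± 0.23, Hist1h1d by -0.78 ± 0.20, Hist1h2be by -0.62 ± 0.14, Hist2h3c2 by -0.53 ± 0.14, Hist1h4k by -0.46 ± 0.16, Hist3h2a by -0.22 ± 0.08 and Hist2h2be by -0.16 ± 0.04. Over both late steps 10 genes were called, and 2 of them, Hist1h1d and Hist1h2be, in each. The late steps share the 24-month mice, so that they are not independent of each other.

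**Figure D4:**
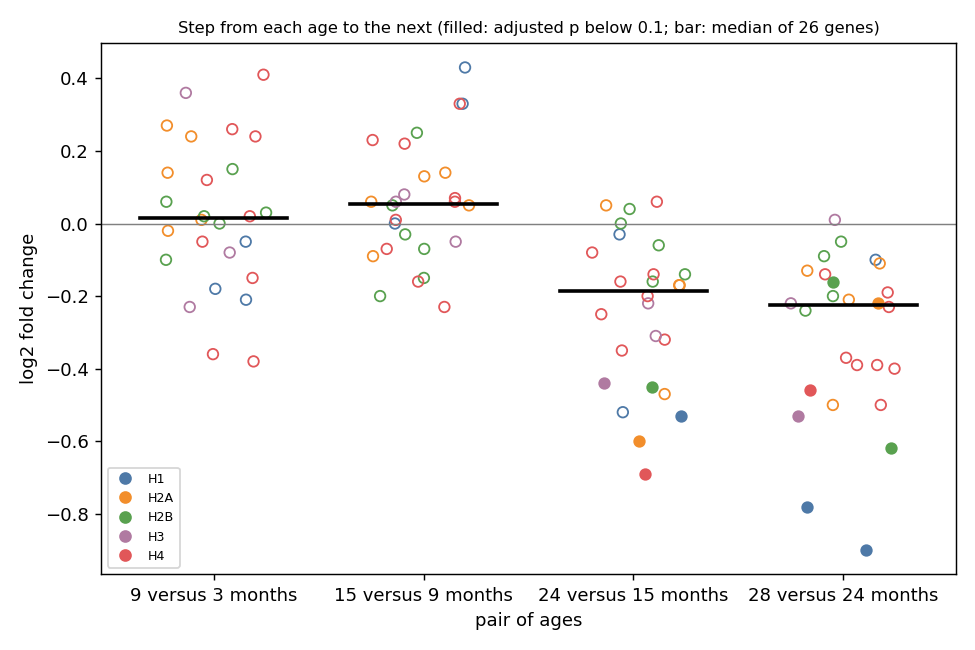
Log2 fold change of the 26 tested histone genes in each step from one age to the next; each point is a gene, colours are classes, filled points passed adjusted p below 0.1 and bars are medians. The medians are 0.01, 0.05, -0.19 and -0.23, and the filled points occur only in the steps to 24 months (5) and to 28 months (7).

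Over the 5 ages together 18 of 26 genes passed the test, where 54.9% of all genes did, and all 18 had a log2 fold change below 0 between 28 and 3 months. Beside genes called between 28 and 3 months these included Hist1h2ac, Hist1h4d and Hist1h4n, while Hist1h4c did not pass (adjusted p = 0.151 with edgeR). Age terms beyond a straight line were called in 6 of 26, where 16.2% of all genes were called. These were Hist1h2be (edgeR adjusted p = 0.00079), Hist1h1d (0.00389), Hist1h1e (0.00891), Hist1h2ad (0.0325), Hist2h2be (0.0716) and Hist2h3c2 (0.0786). In Hist1h2be the medians were 3.14, 3.26, 3.75, 2.75 and 1.85 CPM in order of age, and 16 of 18 mice of 28 months lay below every 15-month mouse. Hist1h1d had the same count, 16 of 18. Hist1h3d and Hist2h4 were called for age but not for terms beyond a line, which does not show that their course was straight.

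Within a preparation batch the groups are small, and the test called 8 of 25, 6 of 26 and 10 of 26 histone genes in batches 1, 2 and 3, all lower at 28 months, where 8.64%, 6.29% and 12.3% of all genes were lower. The 16 genes called in all mice had a log2 fold change below 0 in each batch. Hist2h4 was called in each, at -1.21 ± 0.39, -1.43 ± 0.40 and -1.34 ± 0.31, and so was Hist2h3c2, from -0.80 ± 0.22 in batch 1 to -1.18 ± 0.26 in batch 3. Hist1h1e was called in each batch too. Hist3h2ba differed by -0.58 ± 0.21, -0.61 ± 0.27 and -0.07 ± 0.22, and it passed the threshold in batch 1.

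Without the filter on low counts all 68 genes entered the fit. Then 21 were lower and 2 higher between 28 and 3 months, where 12.3% of 37764 genes were lower and 12.8% higher. The higher genes were Hist1h2bp (1.20 ± 0.32) and Hist1h3a (0.76 ± 0.33), named for being the exceptions. Hist1h2bp had 32 read pairs in the 16 mice of 3 months and 84 in the 18 mice of 28 months, and Hist1h3a had 41 and 86. The low genes that were lower, Hist1h3b (-1.44 ± 0.42), Hist1h2br (-1.23 ± 0.40), Hist1h2af (-1.14 ± 0.47), Hist1h2ak (-1.13 ± 0.46), Hist1h3i (-0.76 ± 0.25) and Hist1h3e (-0.74 ± 0.31), also rest on few read pairs a mouse.

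Mice of one age differed from each other in several histone genes at once. After age and batch were taken out, Pearson's r over the 83 mice was 0.86 between Hist1h1d and Hist1h2be, 0.81 between Hist1h1d and Hist1h1e, 0.83 between Hist1h1e and Hist1h2be, and 0.72 to 0.74 between Hist1h1c and each of these. Of the 325 pairs of tested genes 10 had r over 0.5, and the median was 0.20. The annotated exons of Hist1h1e and Hist1h2be overlap on the minus strand of chromosome 13. Together with Gm11398 the overlap takes 25.7% of Hist1h1e and 11.2% of Hist1h2be, so counts of both are uncertain, and its part in their correlation was not tested. Hist1h1d lies on the other strand and overlaps neither. All points share a library and its scaling. For Hist2h4 r was 0.33 with Hist1h1c and 0.37 to 0.39 with Hist1h1d, Hist1h1e and Hist1h2be. Its r with the mean of the S-phase genes was -0.41. For Hist1h1d, Hist1h1e and Hist1h2be that r was 0.13, 0.06 and 0.17, and for Hist1h4i it was 0.35. With the mean of the mitosis genes r was -0.42 for Hist1h1c, -0.23 for Hist1h1d, -0.37 for Hist1h1e, -0.26 for Hist1h2be and -0.32 for Hist2h4.

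**Figure D5:**
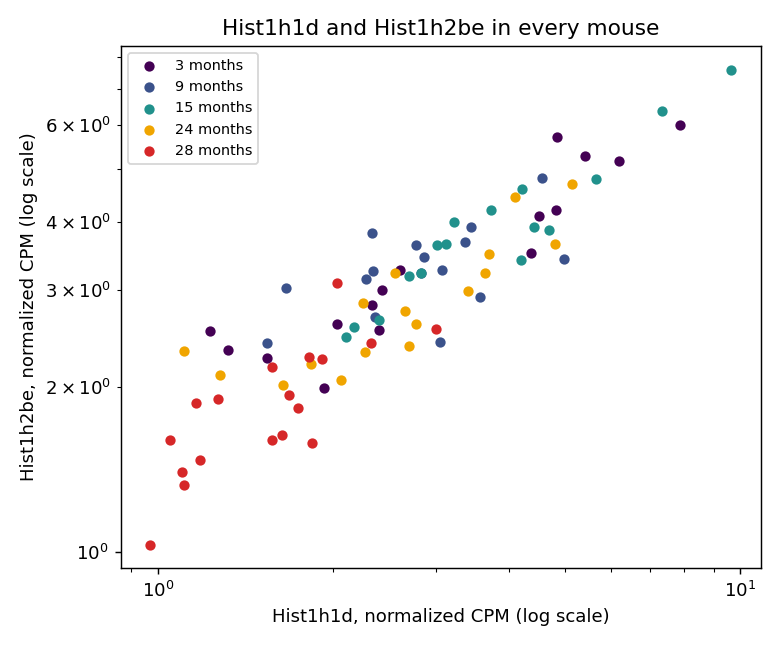
Normalized CPM of Hist1h2be against Hist1h1d (both log scales) in the 83 mice, coloured by age. The mice lie along one rising band, and those of 28 months gather at its lower end, at 0.970 to 3.00 CPM of Hist1h1d and 1.03 to 3.09 of Hist1h2be.

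Genes that work with these histones were compared between 28 and 3 months in the same fit. The S-phase list of 25 genes had 13 lower and 1 higher, with a median log2 fold change of -0.13, for instance Cdc45 (-0.30 ± 0.06) and Cdc6 (-0.31 ± 0.09), which load and start the replicative helicase, and Tyms (-0.25 ± 0.06), which makes thymidylate. Of 10 mitosis genes 7 were lower, with Bub1 at -0.38 ± 0.07 and Top2a at -0.30 ± 0.07. Among 17 genes for transcription and 3′ end processing of histone mRNA 9 were lower and none higher, and Slbp itself changed by -0.19 ± 0.04, Eri1, an exonuclease of histone mRNA ends, by -0.11 ± 0.03 and Ncbp1, a cap-binding protein, by -0.24 ± 0.05. These shares stand beside 25.9% of all genes lower. The chaperones, which hand histones to DNA, had 9 of 17 lower and 1 higher. Asf1b was lower (-0.29 ± 0.07) and Daxx, which works with H3.3, was higher (0.12 ± 0.04). From 24 to 28 months 7 of 25 S-phase, 4 of 10 mitosis, 5 of 17 chaperone and 1 of 17 processing genes were lower. Over all genes it was 6.01%. From 15 to 24 months the counts were 1, 0, 0 and 2, beside 7.24% of all genes.

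The replacement histones, whose genes stand outside these clusters and most of which are made outside S-phase too, had 4 of 11 lower and 1 higher, beside 25.9% and 23.5% of all genes. H2afx, whose mRNA can also end in a stem-loop, changed by -0.31 ± 0.06 and H2afy (macroH2A) by -0.22 ± 0.03, and H3f3b, which encodes H3.3, was higher by 0.14 ± 0.03. The median of the list was -0.07, against -0.35 for the 26 replication-dependent genes and -0.01 for all genes.

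Other transcripts without a poly(A) tail were also counted. Of 21 such genes 18 were in the table and 4 passed the filter. The summed CPM of the 18 was 2.17 to 4.37 at 3 months (median 2.84) and 1.79 to 3.50 at 28 months (median 2.95). Between these ages Snord118 was higher (0.63 ± 0.31) and none of the 4 was lower. With the mean of these genes as a covariate 16 of 26 histone genes were called lower (26.2% of all genes), and 15 with the S-phase score as a covariate (24.5%).

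Markers of several other cell types differed with age, to be read beside the 25.9% of all genes lower and 23.5% higher. The tissue showed its epithelial markers in every mouse, with Muc2 at 8667.4 to 22888.1 CPM and Car1 at 3578.6 to 11534.6. Of 5 B cell markers 4 were lower at 28 months, with a median log2 fold change of -1.21, and their summed CPM was 9.19 to 92.88 at 3 months (median 31.62) and 8.84 to 32.16 at 28 months (median 19.09). All 5 erythroid markers were higher, with a median of 1.26 and a summed CPM of 5.64 to 21.54 at 3 months (median 14.32) and 5.33 to 87.10 at 28 months (median 26.79). Of 4 T cell markers 1 was higher, and their mean had r of -0.38 with Hist1h1d, -0.38 with Hist1h1e and -0.42 with Hist1h2be over mice after age and batch. With these genes, in that order, r was -0.34, -0.32 and -0.26 for the mean of the enteric glia markers. For the enteric neuron markers it was -0.28, -0.28 and -0.24. All 4 goblet cell markers were lower (median -0.29), as were all 4 tuft cell markers (-0.54), 3 of 5 enteroendocrine and 2 of 4 germinal centre B cell markers. All 4 endothelial markers were higher (0.20), as were 3 of 4 macrophage markers (0.39). Of 4 neutrophil markers 3 were higher and 1 lower, and their summed CPM had a median of 2.82 at 3 months and 3.15 at 28 months. Of 5 stem cell markers 1 was higher and 1 lower, of 5 fibroblast markers 1 was higher and 2 lower, and 1 of 6 enterocyte and 1 of 4 enteric neuron markers were lower. Between 28 and 3 months no smooth muscle, plasma cell, enteric glia or adipocyte marker was called. Over the 5 ages together all 4 plasma cell, 2 of 5 smooth muscle and 1 of 4 enteric glia markers were, beside 54.9% of all genes. All 4 plasma cell markers also passed for age terms beyond a straight line, beside 16.2% of all genes. From 24 to 28 months 4 of 5 B cell, 3 of 4 tuft, 2 of 4 goblet and 2 of 4 plasma cell markers were lower. So were 2 of 5 fibroblast, 1 of 5 enteroendocrine and 1 of 4 germinal centre B cell markers, beside 6.01% of all genes. From 15 to 24 months all 4 endothelial, 3 of 4 macrophage and 2 of 4 neutrophil markers were higher. So were 1 fibroblast and 1 enteric glia marker. In that step 2 of 4 tuft, 2 of 4 goblet and 2 of 5 enteroendocrine markers were lower. Every marker on the lists had counts. The B cell score as a covariate left 17 of 26 histone genes called lower (26.1% of all genes), the erythroid score 14 (23.3%) and the T cell score 15 (25.3%), where the last 2 were chosen after the values were seen. The part of each cell type in the levels was not tested.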

How the data were processed

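Total RNA of the proximal colon was sequenced as 100-base read pairs from stranded, poly(A)-enriched libraries. Per the labels and the study's methods, the authors clipped adapters (cutadapt 2.8), removed poor reads (PrinSeq Lite), mapped the rest on GRCm38 by HISAT2 2.1.0, kept uniquely mapped reads with SAMtools 1.9 and counted properly paired reads per gene and strand with featureCounts (Subread 2.0.1). The deposited counts are whole read pairs per gene and mouse, not normalized or pooled. Ages, replicate numbers and batches came from the labels, and all 83 mice were used.

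Symbols were found for 37612 of 37764 genes. Gene models came from the GENCODE release M21 of GRCm38, an earlier annotation than the study's, so ends and lengths may differ from those counted. TPM used merged exon lengths. Counts were fitted with edgeR 4.0.16 (R 4.3.3; filterByExpr by age, TMM, quasi-likelihood F-test, age plus batch) and with DESeq2 1.42.0 as an alternative. Other alternatives changed the scaling, filter, covariates and threshold. On simulated counts for 28 versus 3 months over 18325 genes, the fit recovered 58.8% of changes of 0.25 (log2), 90.9% of 0.5 and 100% of 1. Those changes were put into 68, 66 and 66 genes drawn from all genes, and no gene besides differed with age. In the data 49.4% of genes were called. The median biological coefficient of variation was 0.225 for the histone genes tested, against 0.126 for all, so these shares need not hold for them. No columns were identical, and the closest pair of mice differed by more than counting noise (mean chi-square per gene 9.91). Nothing states that mice are unrelated by litter or cage.

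Named genes were the 12 highest by TPM, the highest of each class, up to 5 per direction called in each comparison, and at most 3 of each list. Hist1h1t, Hist1h2ac, Hist1h2ba, Hist1h3g, Hist1h4c, Hist1h4d, Hist1h4j, Hist1h4n, Hist2h2aa1, Hist2h2aa2, Hist2h2ac and the genes named in the fit without a filter were named after their values were seen. The members and lists were chosen with earlier results of these data known.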

Additional observations from a re-analysis of the deposited data

How the results depend on the processing

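Between 28 and 3 months the 16 genes called had a log2 fold change below 0 in every alternative that tested them, and 14 to 17 of 26 were called under the alternatives that kept all 83 mice and 26 genes. Within single batches 6 to 10 were called. Requiring at least 10 counts in every mouse left 13 histone genes to test. Of these 9 were called between 28 and 3 months (52.2% of all genes), 10 over the 5 ages (59.2%), 3 between 24 and 15 months (16.1%) and 3 for terms beyond a line (18.8%). Between 24 and 15 months the count of 5 became 3 of 68 with no filter on low counts (4.04% of all genes called), 3 at adjusted p below 0.05 (7.53%) and 3 with the T cell score as a covariate (9.98%). The cause was not tested. Between 28 and 24 months the count of 7 became 5 of 68 with no filter (3.87%) and 5 at 0.05 (7.11%). The 6 calls beyond a line became 4 at 0.05 (10.5%), 8 with no batch term (16.1%) and 9 with the non-polyadenylated RNA score (16.4%). The H2A sum, at 0.878 times its 3-month median, was at 0.680 within batch 3. Hist1h2bg, not called, turned to 0.11 within batch 1. Hist1h4i was not called with the S-phase score as a covariate (-0.15). For Hist1h1c, -0.19 with the S-phase score and -0.20 with the B cell score passed the threshold. Of the 16 genes called, 14 kept the call with the S-phase score and with the erythroid score, 15 with the T cell score, DESeq2 size factors, no batch term, no filter or the replicate block, and 16 with DESeq2, the B cell score or the non-polyadenylated RNA score. No histone gene was called between 9 and 3 or 15 and 9 months under any alternative run. Over all genes, 2139 were called between 28 and 24 months, 873 with the S-phase score and 1302 at adjusted p below 0.05; 2476 between 24 and 15 months, 1524 without the filter and 1380 at 0.05; 1593 between 9 and 3 months, 882 without the filter and 759 at 0.05; 79 between 15 and 9 months and 125 with DESeq2; and 2969 beyond a line, 1795 with the S-phase score and 1926 at 0.05.

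Mice of different ages carry the same replicate numbers in the labels but are different animals. Over 161 same-numbered pairs the median correlation of deviations was 0.0103, against -0.00263 for other pairs. Of the same-numbered pairs 16.8% were over 0.1, and that share was not computed for the others. These medians show no general pairing by number, but they cannot exclude one for some of the numbers. With the replicate block, 15 genes were called over the 5 ages (51.9% of all genes) and 15 for the oldest against the youngest mice (47.1%). The steps to 28 and 24 months had 7 and 4 calls (9.71% and 11.6%), the earlier steps 0, and terms beyond a line 6 (14.5%). The 42 genes left untested had at most 511 read pairs over all mice.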
